A study of Mus musculus with 2 samples.

Results

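The genes described here are 33 mouse genes of cholesterol synthesis and lipogenesis, chosen by name and found among 20317 genes with a symbol in the deposited mRNA table, with 1 transcript per gene, the one of highest mean abundance. All 33 were in the table. They fall into a sterol arm of 18 genes (17 enzymes on the route from acetoacetyl-CoA to cholesterol and the sterol carrier Stard4), a fatty acid and triglyceride arm of 12 genes, and 3 regulators.

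RNA-seq was carried out on hepatocytes isolated from wild-type C57BL/6J mice, with 1 library from control mice given oil intraperitoneally and 1 library from mice given CCl4 the same way. The animals were males obtained at 5 weeks of age, before the injections. CCl4 was a 20% solution in mineral oil at 2.5 ml CCl4 per kilogram, and injections were given 2 times per week. The labels give 8 weeks of injection, whereas the methods give a shorter course. CCl4 is a solvent that hepatocytes convert to a toxic radical, and its repeated injection is a standard way to induce liver fibrosis. Hepatocytes were purified by pronase and collagenase digestion and a density gradient, so cells of other types can remain in the preparation. How many animals were pooled is not given in the sources used here. Each condition had 1 library, so the differences have no replicate check, and a difference between treatments cannot be told apart from one between preparations.

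Hepatocytes build cholesterol from acetyl-CoA through mevalonate, farnesyl diphosphate, squalene and lanosterol. They build fatty acids from citrate-derived acetyl-CoA and store them as triglyceride. The membrane-bound transcription factors SREBP-2 and SREBP-1c, encoded by Srebf2 and Srebf1, switch on the sterol and the fatty acid genes respectively. When sterols are plentiful, the Insig proteins hold the SREBP escort protein Scap in the endoplasmic reticulum, and the SREBPs are not processed. Carbohydrate adds a second input through ChREBP, encoded by Mlxipl, and insulin acts on SREBP-1c.

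Promoter windows of 4 members are shown because these genes differed in how they stood in the CCl4 library. Insig1 and Hmgcs1 are standard SREBP targets with lower levels in the CCl4 library, Thrsp had the lowest log2 fold change of the fatty acid arm, and Fasn was slightly higher. They were picked after the values were seen. The windows run from 250 bases before to 50 bases after an annotated start, are taken from RefSeq GRCm38.p6 (the assembly known as mm10, the build named for these files), and are written 5′ to 3′ on the strand of the gene. Capitals mark 4 sets of letters searched on both strands. These are the sterol regulatory element letters TCACNCCAC, the NF-Y letters CCAAT, the Sp1 letters GGGCGG and the E-box CACGTG.
Insig1, chr5:28071162-28071461, plus strand: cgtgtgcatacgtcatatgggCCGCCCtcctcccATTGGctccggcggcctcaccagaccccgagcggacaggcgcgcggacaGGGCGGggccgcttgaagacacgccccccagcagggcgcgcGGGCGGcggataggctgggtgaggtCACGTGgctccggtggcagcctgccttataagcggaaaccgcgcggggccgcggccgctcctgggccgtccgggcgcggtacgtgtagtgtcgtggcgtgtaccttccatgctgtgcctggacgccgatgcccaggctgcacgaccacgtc
Hmgcs1, chr13:119690101-119690400, plus strand: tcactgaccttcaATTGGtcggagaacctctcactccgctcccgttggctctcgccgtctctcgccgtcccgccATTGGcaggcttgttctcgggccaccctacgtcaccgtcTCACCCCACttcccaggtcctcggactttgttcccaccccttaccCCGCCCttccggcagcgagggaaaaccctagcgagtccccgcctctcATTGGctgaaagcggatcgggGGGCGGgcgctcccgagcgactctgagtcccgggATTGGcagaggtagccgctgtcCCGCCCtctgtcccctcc
Thrsp, chr7:97417501-97417800, minus strand: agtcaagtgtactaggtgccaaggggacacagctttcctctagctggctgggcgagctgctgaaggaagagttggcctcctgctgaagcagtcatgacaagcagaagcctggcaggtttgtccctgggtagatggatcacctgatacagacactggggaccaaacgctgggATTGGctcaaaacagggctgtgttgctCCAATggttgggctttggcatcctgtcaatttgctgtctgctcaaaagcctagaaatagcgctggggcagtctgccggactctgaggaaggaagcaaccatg
Fasn, chr11:120824498-120824797, minus strand: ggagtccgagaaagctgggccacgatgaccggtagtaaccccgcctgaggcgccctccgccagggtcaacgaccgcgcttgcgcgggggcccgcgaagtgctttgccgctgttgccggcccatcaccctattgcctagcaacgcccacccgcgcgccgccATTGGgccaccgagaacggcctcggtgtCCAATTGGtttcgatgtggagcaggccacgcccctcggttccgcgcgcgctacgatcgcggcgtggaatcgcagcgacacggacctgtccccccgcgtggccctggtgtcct

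Windows were found for 27 of the 33 members, 34 windows in all, since some genes have more than 1 annotated start. The sterol regulatory element letters occurred in 1 of these windows, that of Hmgcs1, where they begin 137 bases before the start, and in 1.24% of all 32851 windows. NF-Y letters, bound by a factor that works beside SREBP at many sterol genes, occurred in 25 of 34 windows (73.5%), against 37.4% of all windows. Sp1 letters were in 14 of 17 windows of the sterol arm and in 4 of 12 of the fatty acid arm, against 35.7% of all windows. The E-box was in 5 of 34 windows, among them that of Insig1, against 7.15% of all. Some sets of letters overlap, as where the Fasn window holds CCAAT on both strands. These matches describe letters and not binding.

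The sterol arm was lower in the CCl4 library almost throughout. Of its 18 genes, 16 had the lower RPKM in the CCl4 library, with a median log2 fold change of -0.68, against 0.30 for the 10689 genes listed in both libraries, of which 32.4% were lower. RPKM is the number of reads scaled to transcript length and library size, and each log2 fold change compares CCl4 with oil after 0.1 RPKM was added to both values. A gene was called lower or higher where this log2 value reached 1 in size, a 2-fold difference. By that call 4 of the 18 sterol genes were lower and 0 higher. Of all genes 5.48% were called lower, 14.3% higher and 19.8% either way. Of genes with a mean of 20 RPKM or more 17.1% were called lower, beside 22.2% of the sterol genes. The sterol arm holds genes on both sides of 20 RPKM, so neither share is matched to it in abundance. The median of 15 hepatocyte markers was -1.19, and in bulk libraries fewer hepatocytes and less RNA of a gene per hepatocyte cannot be told apart. Whether reads were counted by strand is not given in the sources used here, so reads of overlapping genes may be mixed. In the plot of RPKM by gene the oil symbol stands to the right of the CCl4 symbol for all sterol genes but Mvk and Fdft1.

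**Figure D1:**
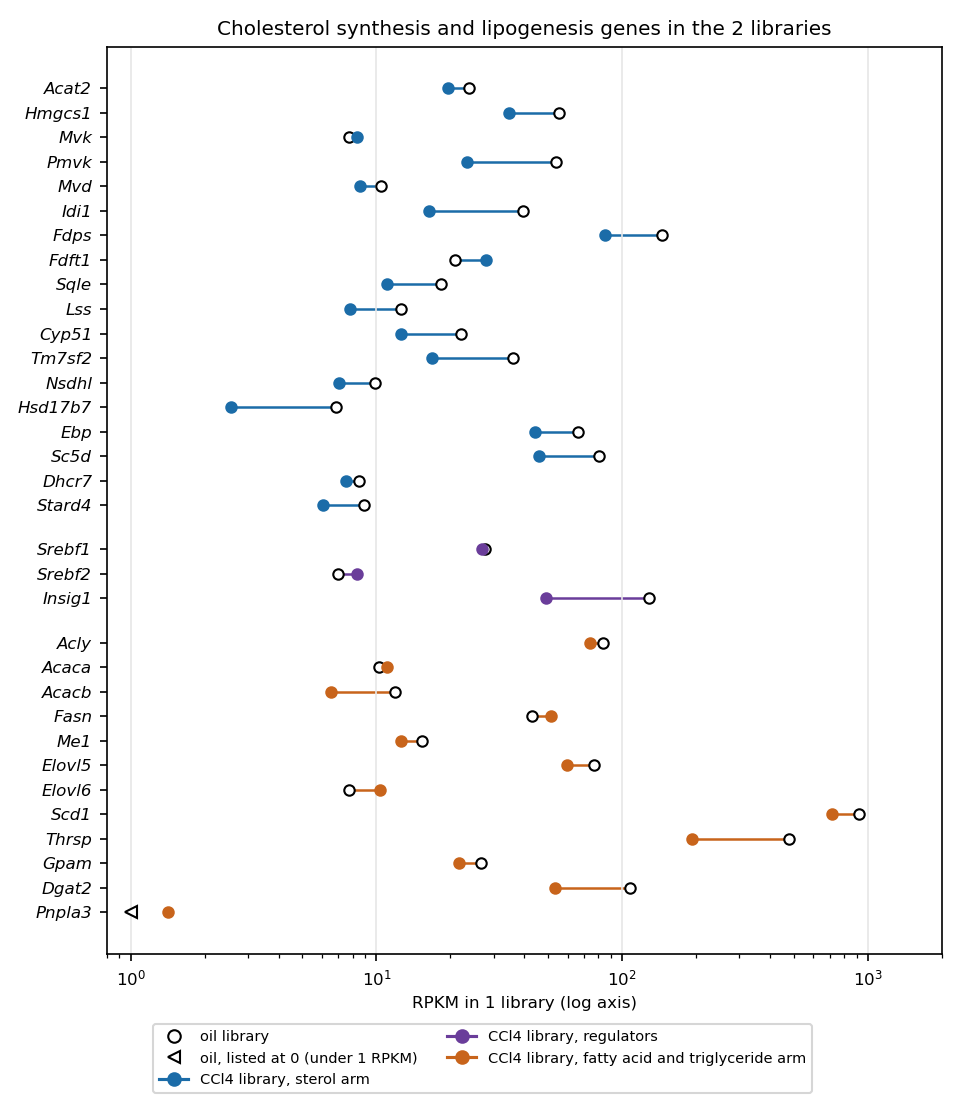
RPKM of the 33 genes (log axis) in the oil library (open symbols) and the CCl4 library (filled symbols), with a line joining both values of a gene and colours for the sterol arm, the regulators and the fatty acid and triglyceride arm. Of the 32 genes with a value in both libraries 26 were lower in the CCl4 library, and Pnpla3, drawn at 1 RPKM with an arrowhead, was listed at 0 in the oil library.

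The early steps make the isoprene units. Acat2, the cytosolic thiolase that joins acetyl-CoA units, was at 23.9 RPKM with oil and 19.5 RPKM with CCl4. Hmgcs1, which makes HMG-CoA, was at 55.6 and 34.5 RPKM, a log2 fold change of -0.69. Mevalonate kinase, Mvk, was at 7.74 and 8.31 RPKM, and the 95% interval of its log2 ratio, from -0.04 to 0.24, included 0. These exact Clopper-Pearson intervals are for the ratio with nothing added and cover counting error only.

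The next kinase differed. Pmvk, phosphomevalonate kinase, was at 53.7 RPKM with oil and 23.5 RPKM with CCl4, 2.29-fold lower with a log2 fold change of -1.19. Another RefSeq transcript of Pmvk, whose reads may overlap those of the first, gave 42.2 and 19.1 RPKM. Mvd, the decarboxylase that forms isopentenyl diphosphate, was at 10.4 and 8.58 RPKM. Idi1, the isomerase of isopentenyl diphosphate, was at 39.5 and 16.4 RPKM with a log2 fold change of -1.27, the lowest of the steps before squalene. Fdps, farnesyl diphosphate synthase and the most abundant gene of the arm, was at 145 and 84.7 RPKM with a log2 fold change of -0.78. Over these 7 steps up to farnesyl diphosphate the summed level was 336 RPKM with oil and 195 RPKM with CCl4.

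Fdft1, squalene synthase, stands at the branch where farnesyl diphosphate is committed to sterols, and it alone among the sterol genes lay above the median of all genes. It was at 20.9 RPKM with oil and 27.9 RPKM with CCl4, a log2 fold change of 0.42 with an interval from 0.34 to 0.50. The enzymes after it were lower. Squalene epoxidase, Sqle, was at 18.3 and 11.1 RPKM (log2 fold change -0.72), and lanosterol synthase, Lss, at 12.5 and 7.83 RPKM (-0.67).

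All 7 genes that carry lanosterol to cholesterol were lower in the CCl4 library, with a median log2 fold change of -0.81. Cyp51, the lanosterol demethylase, was at 22.1 RPKM with oil and 12.5 RPKM with CCl4. Tm7sf2, a sterol C14 reductase, was at 36.0 and 16.8 RPKM, and its log2 fold change was -1.09. Hsd17b7, which reduces a keto group during C4 demethylation, was at 6.87 and 2.55 RPKM with a log2 fold change of -1.39, the lowest of the arm. With 1 RPKM added, which weighs on low genes, it was -1.15, above Idi1 (-1.22) and Pmvk (-1.16).

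The other enzymes of the same stretch differed by less than 2-fold. Nsdhl, another C4 demethylation enzyme, was at 9.86 RPKM with oil and 7.06 RPKM with CCl4. Ebp, the sterol isomerase, was at 66.3 and 44.1 RPKM (log2 fold change -0.59), and Sc5d, the C5 desaturase, at 80.5 and 46.0 RPKM (-0.81). Dhcr7, the last reductase of this route, was at 8.46 and 7.52 RPKM with a log2 fold change of -0.17. Stard4, which carries cholesterol between membranes, was at 8.92 and 6.04 RPKM.

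The level of the SREBP genes differed little between the libraries, whereas their inhibitor Insig1 differed as much as the most reduced enzyme. Srebf1 was at 27.6 RPKM with oil and 26.9 RPKM with CCl4, with an interval of the log2 ratio from -0.11 to 0.04. Srebf2 was at 6.98 and 8.32 RPKM (log2 fold change 0.25). Insig1, itself an SREBP target, was at 129 and 49.1 RPKM, 2.62-fold lower with a log2 fold change of -1.39 and an interval from -1.48 to -1.30. The messages of Srebf1 and Srebf2 do not measure the processed proteins, and the Srebf1 entry does not separate the 1a and 1c forms.

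The fatty acid and triglyceride arm held differences of both signs. Of its 11 genes with a value in both libraries 8 were lower and 3 were higher in the CCl4 library, with a median log2 fold change of -0.31. Of all genes 32.4% were lower, with a median of 0.30, and 10 of the 11 lay below that median. By the 2-fold call 2 of the 11 (18.2%) were lower and 0 higher. Of all genes 5.48% were lower, and of those with a mean of 20 RPKM or more 17.1%. The arm holds genes on both sides of 20 RPKM, so neither share is matched to it in abundance. The arm ranged from -1.30 for Thrsp to 0.41 for Elovl6, and the sterol arm from -1.39 to 0.42, so the arms overlapped over nearly their whole range. The median of the sterol arm lay 0.37 below that of the fatty acid arm on the log2 scale.

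The core enzymes of palmitate synthesis were close to equal in the 2 libraries or slightly higher with CCl4. Acly, ATP citrate lyase, which supplies cytosolic acetyl-CoA, was at 83.6 RPKM with oil and 74.2 RPKM with CCl4. Acaca, the cytosolic acetyl-CoA carboxylase, was at 10.3 and 11.1 RPKM, and Fasn, fatty acid synthase, at 43.1 and 51.2 RPKM (log2 fold change 0.25). Me1, malic enzyme, a source of NADPH, was at 15.4 and 12.6 RPKM.

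The second carboxylase gene behaved otherwise. Acacb, whose product sits at mitochondria and makes the malonyl-CoA that restrains fatty acid oxidation, was at 11.9 RPKM with oil and 6.55 RPKM with CCl4, a log2 fold change of -0.85. Acaca was thus 0.862 times as abundant as Acacb with oil and 1.69 times with CCl4, a ratio within a library that does not depend on scaling.

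Thrsp, the Spot 14 gene, a lipogenic gene driven by thyroid hormone and carbohydrate, was the second most abundant of the 33 genes. It was at 477 RPKM with oil and 193 RPKM with CCl4, a log2 fold change of -1.30 with an interval from -1.36 to -1.25. Scd1, the desaturase that makes oleate and palmitoleate, was the most abundant of the 33 in both libraries, at 917 and 713 RPKM (-0.36). Scd1 made up 51.6% of the summed RPKM of the arm with oil and 59.0% with CCl4, and the share of Thrsp was 26.8% and 16.0%.

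The elongases differed in direction. Elovl5, which acts on polyunsaturated fatty acids, was at 77.1 RPKM with oil and 59.9 RPKM with CCl4, while Elovl6, which extends palmitate, was at 7.77 and 10.3 RPKM (log2 fold change 0.41). Of the glycerolipid genes, Gpam, the mitochondrial glycerol-3-phosphate acyltransferase, was at 26.7 and 21.6 RPKM (-0.31). Dgat2, which adds the last acyl chain of triglyceride, was at 108 and 53.5 RPKM, and its log2 fold change was -1.01. Its interval from -1.07 to -0.96 included the limit for a call. Pnpla3, a lipid droplet protein induced by feeding, was listed at 0 in the oil library and at 1.42 RPKM in the CCl4 library, so no fold is given.

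**Figure D2:**
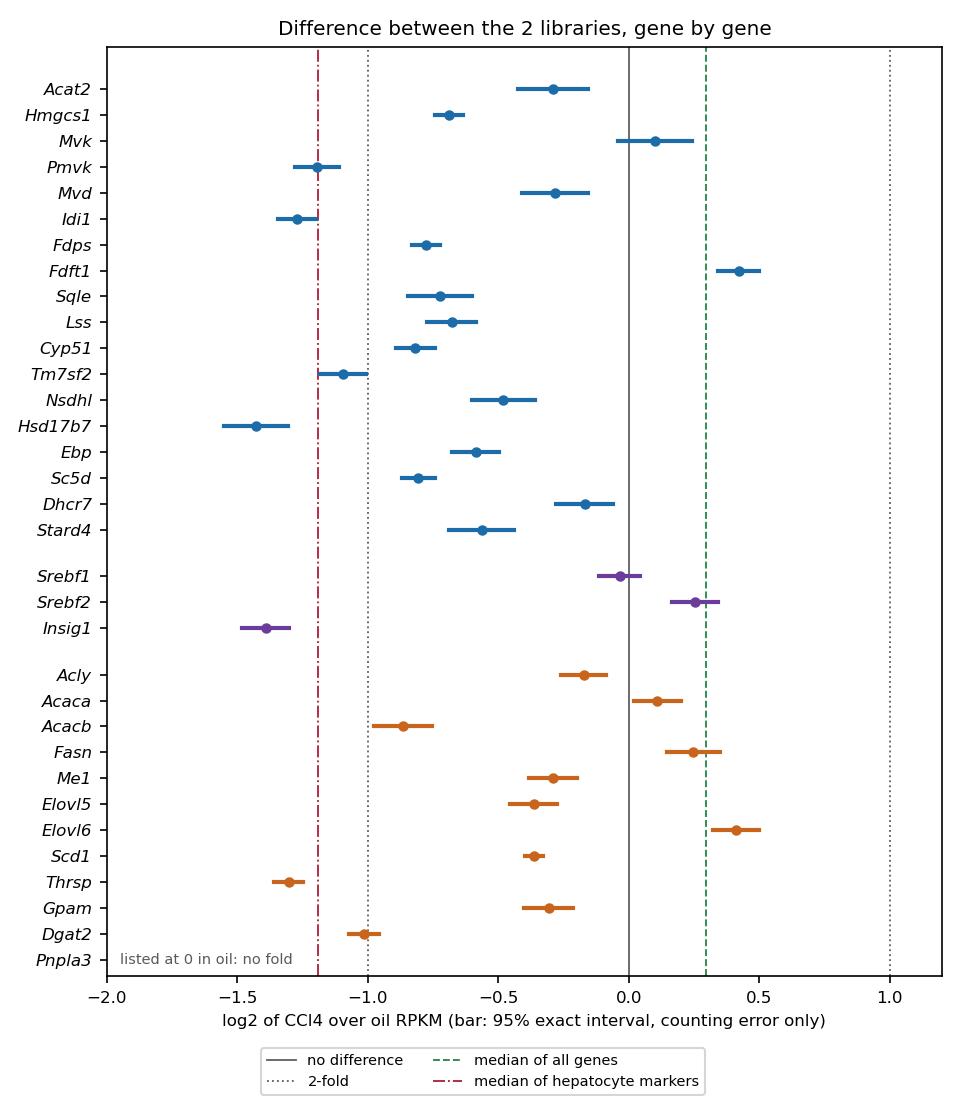
Log2 ratio of RPKM (CCl4 to oil) for 32 genes (points) with 95% exact Clopper-Pearson intervals that cover counting error only (bars), in the order of the pathway steps. Dashed and dash-dotted lines stand for the medians of all genes (0.30) and of 15 hepatocyte marker genes (-1.19). In the plot 30 of the 32 genes lie to the left of the former, and Idi1, Hsd17b7, Insig1 and Thrsp lie to the left of the latter with Pmvk on it.

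The 7 members called lower were thus 4 sterol genes, Insig1, Thrsp and Dgat2. With RPKM divided by its sum without the 10 most abundant mRNAs, Tm7sf2 (-0.93) and Dgat2 (-0.85) were within 2-fold. Their gene bodies lie in GRCm38.p6 with Pmvk at chr3:89454541-89469014, Idi1 at chr13:8885606-8892396, Tm7sf2 at chr19:6062821-6067850, Hsd17b7 at chr1:169949535-169969242, Insig1 at chr5:28071412-28078662, Thrsp at chr7:97412933-97417550 and Dgat2 at chr7:99153663-99182713. Of all genes tested, 2.37% had a lower log2 fold change than Hsd17b7 and 2.42% a lower one than Insig1. Counting error was small beside most of these differences. The 32 genes rested on at least 745 reads per library, and the widest interval reached 0.14 on either side on the log2 scale. The intervals of Mvk and Srebf1 alone included 0. The Spearman rho between the mean RPKM of both libraries and the CCl4 RPKM was 0.97 over the 32 genes. That mean holds the CCl4 value, so this rho does not measure how well the order was kept. The genes also share both libraries and are not replicates. By rank of abundance among the 33 members, Scd1, Thrsp and Fdps kept their places as the most abundant. Fdft1 went from rank 19 with oil to 12 with CCl4, and Acacb from 23 to 30.

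The size of these decreases has to be read beside abundance and cell makeup. Among the 2151 genes with a mean of 20 RPKM or more the share called lower was 17.1% and the median log2 fold change was -0.07. Of the 18 members at that abundance 6 were called lower, with a median of -0.64. Below that abundance 1 of 14 members was called lower, with a median of -0.38, beside 2.57% of all genes and a median of 0.35. Albumin, Alb, at 8656 RPKM with oil and 6476 RPKM with CCl4, fitted the labelled cell type, but hepatocyte markers were lower with CCl4. All 15 of them had a lower RPKM in the CCl4 library, from -0.42 for Alb to -2.33 for Cyp2e1, with a median of -1.19 and a summed level of 28916 RPKM with oil and 15244 RPKM with CCl4. The log2 fold changes of 28 of 32 members lay above that hepatocyte median, among them 16 of the 18 sterol genes and 10 of the 11 fatty acid genes. Pmvk was nearly equal to it.

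Most markers of stellate cells, macrophages and sinusoidal endothelium had the higher RPKM in the CCl4 library. All 10 stellate cell and myofibroblast markers with a value in both libraries were called higher, and the sum over the list of 12 was 80.7 RPKM with oil and 964 RPKM with CCl4. The Kupffer cell and macrophage list went from 1465 to 3118 RPKM, with 7 of 10 called higher. Its member Clec4f went the other way, at 283 RPKM with oil and 255 RPKM with CCl4 (log2 fold change -0.15). The sinusoidal endothelial list went from 553 to 929 RPKM. All 9 of its genes had the higher RPKM with CCl4, but 1 of 9 (11.1%) was called higher. Of all genes 14.3% were called higher. Of 6 cholangiocyte markers Spp1, which other cells also express, went from 37.4 to 145 RPKM and Krt19 from 8.86 to 17.8 RPKM, Krt7 and Epcam were within 2-fold, and Sox9 and Cftr were at 0 in both libraries. The erythroid list went from 3202 to 2152 RPKM and the list of T and B cells from 8.21 to 23.7 RPKM. All 5 adipocyte markers, Adipoq, Plin1, Lep, Cfd and Retn, were listed at 0 in both libraries. The part that cell makeup has in the lower sterol and fatty acid genes was not tested.

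**Figure D3:**
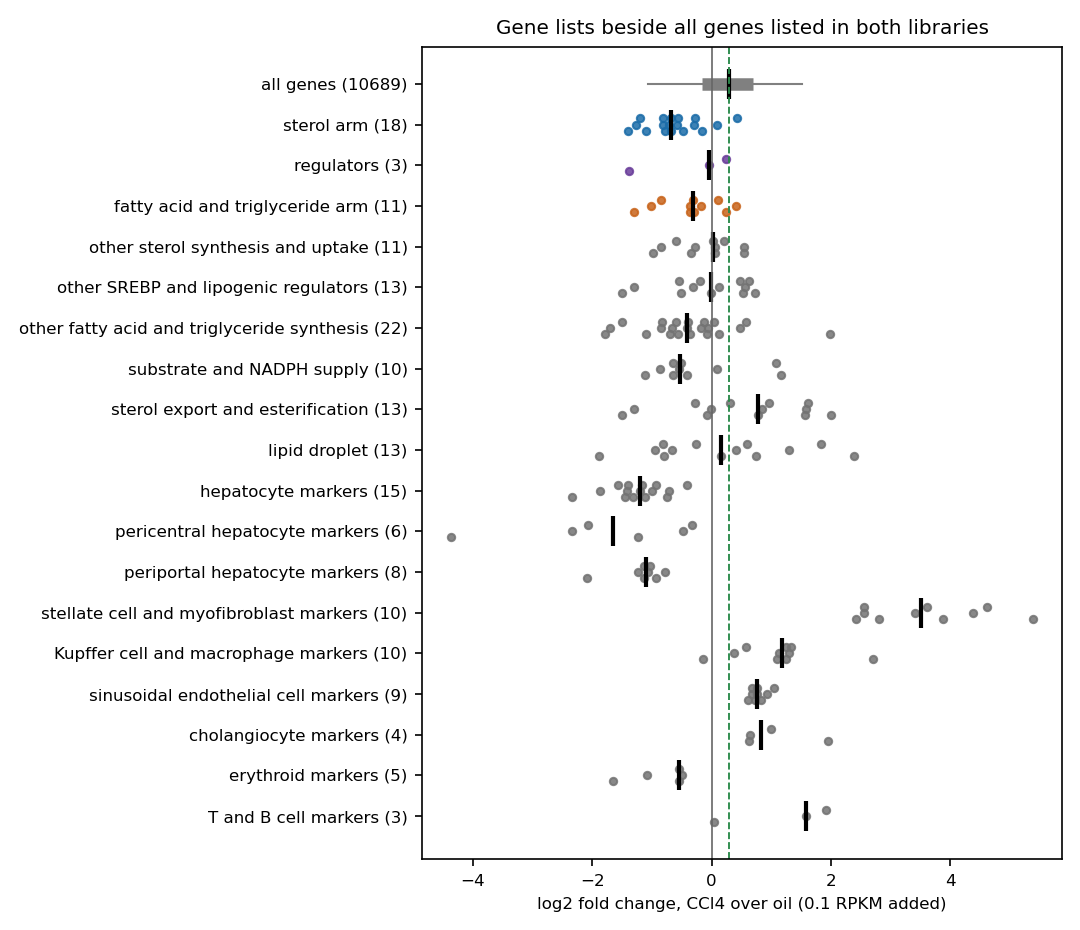
Log2 fold change (CCl4 over oil, 0.1 RPKM added) of each gene (points) in the 3 groups of members, the further pathway lists and the cell type marker lists, with the number of genes in brackets, black ticks at the medians and a dashed line at the median of all genes. For all genes the thick bar spans the quartiles and the thin line the 5th to 95th percentile. The sterol arm (median -0.68) lies between the median of all genes (0.30) and that of hepatocyte markers (-1.19).

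The sign of these values depended on the scaling, which shifts members and all other genes alike. With the libraries set to the median gene, 12 of the 32 members and 1038 of all 10689 genes were lower by 2-fold, and the sterol and fatty acid medians were -0.98 and -0.61. With the hepatocyte marker median as reference, 0 members were lower and 9 higher by 2-fold, beside 50 lower and 8116 higher of all genes, and the medians were 0.51 and 0.88. The summed sterol arm was 626 RPKM with oil and 385 RPKM with CCl4, and the summed fatty acid arm 1778 and 1208 RPKM, so their ratio within a library was 0.352 and 0.319. The direction of that difference rested on Scd1, since the log2 ratio of the summed fatty acid arm was -0.56 with it and -0.80 without it, against -0.70 for the sterol arm.

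**Figure D4:**
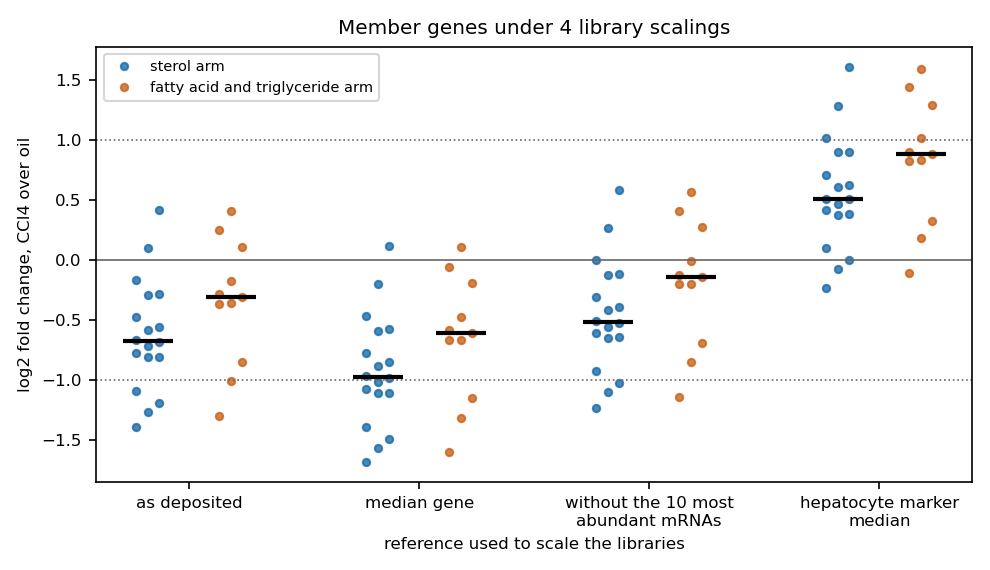
Log2 fold change of the 18 sterol genes and 11 fatty acid and triglyceride genes (points) under 4 library scalings, with black bars at the medians and dotted lines at a 2-fold difference. Apart from the 0.1 RPKM added, each scaling shifts all genes by 1 constant, so the distance between the arms is nearly the same by construction. Of the 4, the hepatocyte marker median alone places both medians above 0 (0.51 and 0.88).

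The rest of the pathway was described through 6 lists of 88 genes, of which 82 had a value in both libraries. Of these, 10 were called lower and 10 higher, a share of 12.2% each way, beside 5.48% lower and 14.3% higher among all genes. The median log2 fold change was -0.15. Among 11 further genes of sterol synthesis and uptake 0 were called either way, with a median of 0.02. Msmo1, the C4 methyl oxidase that works with Nsdhl and Hsd17b7, came closest with 31.2 RPKM with oil and 15.6 RPKM with CCl4 (log2 fold change -0.99). Cyb5r3, a reductase that serves several of these oxidases, was at 160.5 and 107 RPKM.

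Among 13 further regulators 2 were called lower and 0 higher. Of all genes 5.48% were called lower, and of those with a mean of 20 RPKM or more 17.1%, but this list holds genes on both sides of that level. Insig2, the second Insig gene, was at 65.2 RPKM with oil and 26.3 RPKM with CCl4 with a log2 fold change of -1.31, so that Insig1 exceeded Insig2 1.98 times in the oil and 1.87 times in the CCl4 library. Mlxipl, the ChREBP gene, was at 29.0 and 10.1 RPKM (-1.51). The most abundant others hardly differed. Nr1h3, which encodes the oxysterol receptor LXR-alpha, an activator of Srebf1, was at 54.9 and 54.8 RPKM, and its partner Rxra at 67.7 and 59.1 RPKM.

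Of 22 further fatty acid and triglyceride genes 4 were called lower (18.2%) and 1 higher (4.55%), beside 5.48% lower and 14.3% higher among all genes. Of genes with a mean of 20 RPKM or more 17.1% were called lower, but this list holds genes on both sides of that level. Acsl1, which activates fatty acids with CoA, was at 130 RPKM with oil and 39.7 RPKM with CCl4 (log2 fold change -1.70). The phosphatidate phosphatases Lpin1 and Lpin2, which form diacylglycerol ahead of Dgat2, were at 59.3 and 17.2 RPKM (-1.78) and at 41.6 and 14.6 RPKM (-1.51). Elovl2, an elongase of very long polyunsaturated chains, was at 34.4 and 16.0 RPKM (-1.10). Elovl3, another elongase, stood at 205 RPKM with oil and was listed at 0 with CCl4.

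The desaturase paralogue was the exception. Scd2 was at 3.82 RPKM with oil and 15.4 RPKM with CCl4 (log2 fold change 1.99), so that Scd1 exceeded Scd2 by a factor of 240.4 with oil and of 46.2 with CCl4. Slc25a1, the citrate carrier that feeds Acly, was at 77.8 and 43.0 RPKM (-0.85). Dgat1, the other enzyme of the step of Dgat2, named after its values were seen, was at 8.68 and 9.53 RPKM, which brought the ratio of Dgat2 to Dgat1 from 12.4 to 5.61. The pairs of related genes were picked after their values were seen.

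Of 10 genes that supply carbon and NADPH 2 were called higher and 1 lower, close to the shares of all genes (14.3% and 5.48%). The pentose phosphate dehydrogenases, a main source of NADPH for both arms, were higher, with G6pdx at 7.47 RPKM with oil and 15.9 RPKM with CCl4 (log2 fold change 1.07) and Pgd at 10.8 and 24.4 RPKM (1.17). Mdh1, cytosolic malate dehydrogenase, was at 133 and 61.1 RPKM (-1.12). Khk, ketohexokinase, which phosphorylates fructose, was at 228 and 145 RPKM (-0.65).

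Of 13 genes that handle and dispose of cholesterol 4 were called higher and 2 lower, where all genes were also called higher (14.3%) more often than lower (5.48%). The median log2 fold change of the list was 0.78, against 0.30 for all genes. Cyp7a1, the rate-limiting enzyme of bile acid synthesis, was at 4.74 RPKM with oil and 19.2 RPKM with CCl4, 4.05-fold higher. Soat1 and Nceh1, which esterify cholesterol and release it again and which macrophages also express, were at 4.58 and 13.99 RPKM (log2 fold change 1.59) and at 4.31 and 13.4 RPKM (1.61). The lysosomal proteins Npc2 and Lipa were at 24.5 and 72.7 RPKM (1.56) and at 36.3 and 71.0 RPKM (0.97).

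The paired transporters that export sterols into bile were lower. Abcg5 was at 9.62 RPKM with oil and 3.85 RPKM with CCl4 (log2 fold change -1.30), and Abcg8 at 6.96 and 2.38 RPKM (-1.51). Scarb1, the receptor for high-density lipoprotein, was at 42.0 and 41.9 RPKM. The macrophage markers given above were mostly higher in the same library, and their part in the higher genes of this list was not tested.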

How the data were processed

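RNA-seq was performed by the study on 1 library of primary hepatocytes per condition. The submitters' processing notes name CASAVA 1.4, TopHat2 and the mm10 build, and the counting program and annotation version are not given in the sources used here. The deposited mRNA levels are RPKM, the authors' read numbers scaled to transcript length and library size, and every mRNA value under 1 RPKM was listed as 0. For unannotated lncRNAs the authors also deposited raw read counts and lengths, which served here only to check the recovery of reads. The deposited tables also hold the authors' own log2 changes, p-values and q-values, which were not used.

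RefSeq identifiers were paired with symbols through the GRCm38.p6 gene table, which matched 27049 of 27457 mRNA transcripts. For each of the 20317 genes the transcript of highest mean abundance was kept. Genes with a listed value in both libraries (10689) were compared by the log2 ratio of CCl4 to oil with 0.1 RPKM added to both, and a gene was called higher or lower at an absolute value of at least 1. With 1 library per condition no test was possible and no p-value is given. Members and gene lists were chosen with earlier results of these data known. Named genes are all 33 members and, of the 6 further pathway lists, the genes past the fold or among the 3 most abundant of their list. Dgat1 and Cidec fall outside this rule and were named after their values were seen. Some genes under this rule are not reported here.

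The library totals that turned the RPKM of annotated genes shorter than 400 bases into whole reads, within 0.02 reads, were 57992574 for oil (203 of 211 genes) and 64655549 for CCl4 (215 of 223 genes). For each member lengths from 200 to 30000 bases were tried, and the shortest one at which both values came out whole, within 0.001 reads plus rounding, yielded lower bounds of its reads. On 1397 unannotated lncRNAs with deposited counts the recovered reads were exact in 83.5% and above the counts in 0. This check used the library totals that the lncRNA counts, RPKM and lengths themselves give, 62438205 for oil and 70960848 for CCl4. These differ from the totals used for the members, so the check covers the search over lengths and not those totals. The 95% intervals are exact Clopper-Pearson intervals, and they leave out preparation error and PCR duplication. Fold changes, the recovery and the intervals were tested on simulated data. The alternatives covered the added value, the scaling, the filter, the transcript choice and the fold limit. Calculations used pandas 2.3.3 and scipy 1.17.1 under Python 3.11.15, with numpy 2.4.6 and matplotlib 3.10.9.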

Additional observations from a re-analysis of the deposited data

How the results depend on the processing

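The 7 members called lower remained lower by at least 2-fold with 1 RPKM added. Summing transcripts could alter Pmvk alone among them, and adding nothing, including genes listed at 0 or scaling to the median gene could not remove a lower call, so these settings say nothing of their stability. No paired analysis was possible because each condition has 1 library, and for the same reason no replicate could be left out. In each list below the values are for CCl4 over oil, and a count is of genes past the limit for a call.

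With scaling to the median gene, 12 members, 8 sterol genes, 18 further pathway genes and 1038 of all genes were lower, and 854 of all genes were higher. The medians were -0.81 for the members, -0.98 for the sterol arm, -0.61 for the fatty acid arm and -0.45 for the further pathway genes, and the log2 ratios of the summed arms were -1.005 for sterol and -0.86 for fatty acid. When RPKM was divided by the sum without the 10 most abundant mRNAs, Tm7sf2 and Dgat2 were within 2-fold and 1 fatty acid gene was lower. Of all genes 430 were lower and 2064 higher. The medians were -0.35, -0.52, -0.14 and 0.012 in the same order, the last with its sign reversed, and the summed arms gave -0.54 and -0.39.

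With the hepatocyte marker median as reference, 0 members, 0 sterol, 0 fatty acid, 0 further pathway and 50 of all genes were lower, and 9, 3, 4, 42 and 8116 were higher. The medians turned positive, at 0.66, 0.51, 0.88 and 1.03, as did the log2 ratios of the summed sterol arm (0.49) and fatty acid arm (0.64), and Tm7sf2 (0.10) and Dgat2 (0.18). Of the 32 members 5 stayed below 0.

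With at least 5 RPKM required in both libraries, Hsd17b7 dropped out, and 6 members, 3 sterol genes and 450 of all genes were lower. Under the same filter 6 further pathway genes and 556 of all genes were higher, and the median of the further pathway genes was -0.26. With the limit at 2 on the log2 scale, 0 members, 0 sterol, 0 fatty acid, 0 further pathway and 75 of all genes were lower, and 1 further pathway gene and 188 of all genes were higher. With the limit at 0.58, 15 members, 11 sterol, 25 further pathway and 1293 of all genes were lower, and 17 further pathway and 3395 of all genes higher. Without Scd1 the log2 ratio of the summed fatty acid arm was -0.80. Genes listed at 0, below 1 RPKM, limit the comparison to 10689 of 20317 genes.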

Other observations

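Lipid droplet genes, which hold what the glycerolipid steps produce, showed values in both directions. Of 13 with a value in both libraries, 3 were called higher and 1 lower, beside 14.3% higher and 5.48% lower among all genes. G0s2, an inhibitor of triglyceride lipolysis, was at 9.20 RPKM with oil and 48.5 RPKM with CCl4 (log2 fold change 2.39). Cd36, a fatty acid uptake protein, was at 19.7 and 70.6 RPKM (1.84), and Fabp4, a fatty acid carrier of macrophages and endothelium, at 34.4 and 84.6 RPKM (1.30). Fabp1, the liver fatty acid carrier, was at 2301 and 621 RPKM (-1.89). Plin2, the main droplet coat protein of the liver, was at 189 and 157 RPKM, and Hsd17b13, a hepatocyte droplet protein, at 71.1 and 79.3 RPKM. Cidec was at 2.11 RPKM in the oil library and listed at 0 in the CCl4 library.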
